A study of Homo sapiens with 8 samples.

Results

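The genes described here are 10 members of the tumour necrosis factor (TNF) family, 8 receptors and 2 ligands. They were measured in human cell lines labelled as myeloma and treated with Zalypsis. The receptors were BCMA (TNFRSF17), TACI (TNFRSF13B), the BAFF receptor (TNFRSF13C), CD40, CD27, 4-1BB (TNFRSF9), GITR (TNFRSF18) and DR6 (TNFRSF21), and the ligands were CD70 and 4-1BB ligand (TNFSF9). All probe sets that the platform table gave to these genes were taken, 17 of 54675 on the array, and none of the 17 carried a further gene symbol. CD40 had 4 probe sets, TNFRSF9 had 3, TNFRSF18 and TNFRSF21 had 2 each, and the other 6 genes had 1.

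The series holds 8 HG-U133 Plus 2.0 arrays in 4 groups of 2. The groups were MM1S cells given Zalypsis, a DNA-binding compound of marine origin, at 5 nM, MM1S control cells, OPM1 cells given Zalypsis at 5 nM, and OPM1 control cells. MM1S and OPM1 are labelled as lines of multiple myeloma, a cancer of plasma cells, and treated cells were collected when 15 to 20% of them were dying. The labels name no separate cultures within a group and no treatment of the controls. All p-values therefore rest on differences between arrays of a group, and these may be purely technical.

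BCMA and TACI bind the cytokines BAFF and APRIL, and the BAFF receptor binds BAFF. These cytokines keep plasma cells and B cells alive. BCMA is a hallmark of plasma cells and a target of myeloma therapy, whereas the BAFF receptor belongs to B cells. CD27 and CD40 are receptors of the B lineage, CD70 is the ligand of CD27, and 4-1BB ligand is a surface protein of activated antigen-presenting cells that binds 4-1BB on T cells. These receptors have no enzyme of their own. Most of them signal through TRAF adaptor proteins to the transcription factor NF-kB, while DR6 carries a death domain.

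The sequence before the transcription start is shown for 3 members whose transcripts changed most: 4-1BB ligand, which rose most in MM1S, and TACI and DR6, which fell most in the OPM1-labelled cells. RefSeq promoter sequences of the build GRCh38.p14 matched 6 of the 10 members, and the 250 bases before the start are given 5′ to 3′ on the gene's strand. Capitals mark matches on either strand to a TATA box (TATAAA), an AP-1 site (TGANTCA), a cAMP response element (TGACGTCA), a GC box (GGGCGG) or an NF-kB motif.
TNFSF9 (chr19:6530776-6531025, plus strand): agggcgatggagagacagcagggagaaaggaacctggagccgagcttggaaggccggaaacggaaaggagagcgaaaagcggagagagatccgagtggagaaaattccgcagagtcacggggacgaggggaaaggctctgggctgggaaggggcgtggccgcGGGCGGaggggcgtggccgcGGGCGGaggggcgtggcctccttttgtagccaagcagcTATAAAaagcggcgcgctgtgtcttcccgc
TNFRSF13B (chr17:16972119-16972368, minus strand): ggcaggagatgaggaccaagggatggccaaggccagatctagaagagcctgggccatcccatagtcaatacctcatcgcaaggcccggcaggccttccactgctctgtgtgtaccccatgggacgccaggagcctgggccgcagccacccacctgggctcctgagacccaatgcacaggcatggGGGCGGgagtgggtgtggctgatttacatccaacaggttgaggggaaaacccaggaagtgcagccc
TNFRSF21 (chr6:47309906-47310155, minus strand): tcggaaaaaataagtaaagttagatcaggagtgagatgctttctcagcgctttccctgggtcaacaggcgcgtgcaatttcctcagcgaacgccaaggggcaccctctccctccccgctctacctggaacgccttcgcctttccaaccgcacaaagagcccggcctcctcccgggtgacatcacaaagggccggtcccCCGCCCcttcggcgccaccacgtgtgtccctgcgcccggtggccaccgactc
The window of TNFSF9 held a TATA box that began 30 bases before the start and 2 GC boxes, and those of TNFRSF13B and TNFRSF21 held 1 GC box each. Of 35116 promoter windows of the same length, 10.7% held the TATA box, 42.6% the GC box, 6.57% the AP-1 site, 1.65% the cAMP response element and 5.21% the NF-kB motif. A match is a string of letters and not a measured binding site.

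The values are signals on a linear scale as the authors' dChip analysis gave them, and tests used log2(signal + 32), which understates the change of dim genes. Arrays of a group correlated at 0.988 to 0.993 across probe sets, and arrays of different groups at 0.802 to 0.963. SDC1, the surface antigen that defines plasma cells, read 6.56 to 13.96 on the 4 OPM1 arrays and 2370 to 3443 on the 4 MM1S arrays. Another plasma cell marker, CD38, went the other way, at 489 in untreated OPM1-labelled and 54.2 in untreated MM1S cells (log2 2.58, limma adjusted p = 1.4e-12), while the other 7 of 8 were lower in untreated OPM1-labelled cells. The summed signal of the 8 was 4009 to 5755 on OPM1 arrays and 21446 to 31710 on MM1S arrays, to which JCHAIN gave 1867 to 3375 and 9760 to 10708, and that of 6 B-cell markers was 3535 to 8912 on OPM1 arrays and 141.5 to 198.7 on MM1S arrays. The cells of the OPM1 arrays are therefore called OPM1-labelled. Poly-A control transcripts are added to the RNA before labelling. Their geometric mean was 1862 and 1349 on the treated OPM1 arrays, against 299.7 and 448 on the OPM1 control arrays. On the MM1S arrays it was 19.7 to 25.7, near the median signal of 23.8 to 24.8 on those arrays. Scaling MM1S arrays to these controls, as in the poly-A scaling below, therefore rests on dim signals. So in part do the differences of responses with that scaling. On the first OPM1 control array the 3′ to 5′ signal ratio was 2.26 for GAPDH and 5.80 for ACTB, against 0.963 to 1.06 and 1.78 to 2.62 on the other 7. The part of these differences in the results below was not tested. Results in OPM1-labelled cells are given without that array, and with other scalings, where these end a call or turn a direction.

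Of the 10 members, 8 were bright enough to be tested, and TNFRSF9 and TNFRSF18 were not. With Zalypsis in MM1S, 2 of the 8 rose (TNFSF9 and CD70) and 2 fell (TNFRSF13B and TNFRSF21) at an adjusted p under 0.05 in limma, where 37.6% of all 11865 tested genes were called, 16.4% higher and 21.1% lower. With Zalypsis in OPM1-labelled cells, 1 rose (CD40) and 5 fell (TNFRSF17, TNFRSF13B, CD27, CD70 and TNFRSF21), where 63.9% of all genes were called, 25.4% higher and 38.5% lower. The responses of the lines differed for 7 of the 8, 1 higher and 6 lower in OPM1-labelled cells, where 46.6% of all genes were called, 15.3% higher and 31.2% lower. Before treatment, 3 were higher (CD27, TNFSF9 and TNFRSF21) and 2 lower (TNFRSF17 and TNFRSF13B) in OPM1-labelled cells than in MM1S, where 63.7% of all genes were called, 28.6% higher and 35.2% lower. Within each line, and between the untreated lines, the members' counts were near these shares and are no result about the members as a set. For the difference of responses the count was above the share of all genes. The members were chosen with earlier results of these data known, so that count is no result about them as a set either. The median log2 change of the 8 members was 0.14 in MM1S and -0.68 in OPM1-labelled cells, and that of all tested genes was 0.02 and -0.07.

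The arrays of the groups did not overlap for 6 of the 8 with Zalypsis in MM1S, for 6 in OPM1-labelled cells and for 6 between the untreated lines, as for 66.4%, 80% and 79.6% of all tested genes. By the authors' rule of group means over 2-fold apart, 1 of the 8 was higher and 0 lower in MM1S, where 3.77% and 9.9% of all genes were. By that rule 0 were higher and 3 lower in OPM1-labelled cells, against 11.2% and 26.7% of all genes. Between the untreated lines 3 were higher and 2 lower by it, against 13.8% and 19% of all genes.

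**Figure D1:**
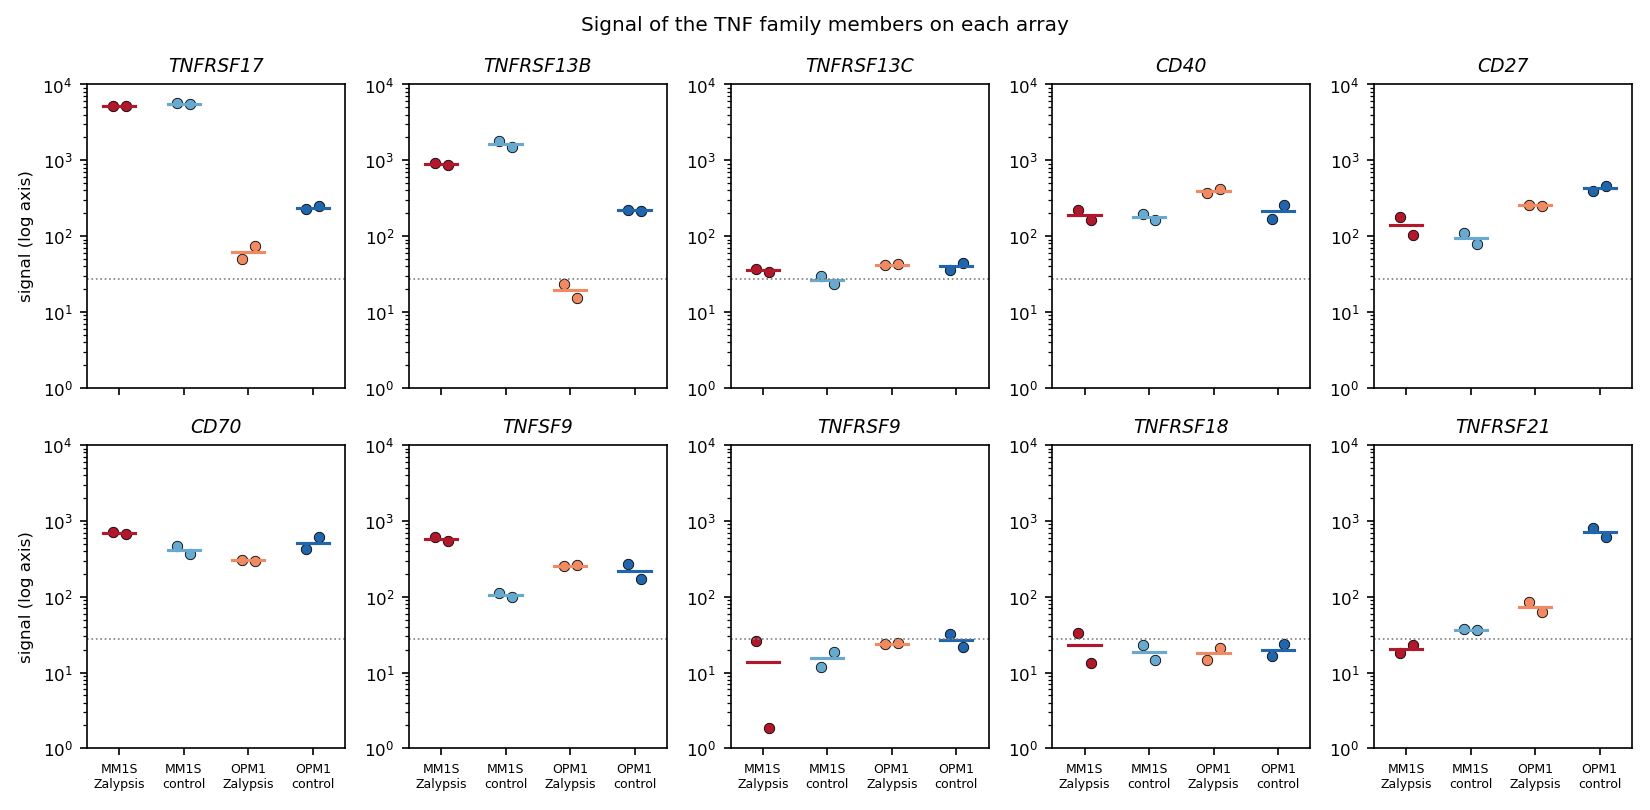
Signal of the probe set that stands for each of the 10 members on each of the 8 arrays, on a log axis, by group. Points are arrays, bars are means of the 2 arrays, and the dotted line is the signal of 27.3 below whose mean genes were not tested. TNFRSF17 lies between 50.2 and 248.96 on the 4 OPM1 arrays and between 5244 and 5664 on the 4 MM1S arrays.

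BCMA transcripts were abundant in MM1S and stayed so with Zalypsis, but were far lower in OPM1-labelled cells and fell there. TNFRSF17 read 5244 and 5271 on the treated MM1S arrays, against 5664 and 5499 on the MM1S controls. The treated arrays were both the lower ones, but the difference was small, a log2 change of -0.09 ± 0.15 (SE) with a 95% interval of -0.40 to 0.23 (limma adjusted p = 0.706). In OPM1-labelled cells TNFRSF17 read 50.2 and 73.4 with Zalypsis, against 227 and 248.96 in controls. The groups did not overlap, the control mean was 3.85 times the treated mean, and the log2 change was -1.54 ± 0.15 (limma adjusted p = 1.0e-08). Untreated OPM1-labelled cells had a mean of 238 ± 15.3 (SD, n = 2) against 5581 ± 117 in untreated MM1S, which was 23.4 times as much, with a log2 difference of -4.38 ± 0.15 (limma adjusted p = 1.9e-16). In bulk RNA, fewer cells of a type and less RNA per cell cannot be told apart. With Zalypsis, 1 of 8 plasma cell markers rose and 5 fell in OPM1-labelled cells, and 0 rose and 3 fell in MM1S. Their summed signal was 4489 and 4009 in treated and 5136 and 5755 in control OPM1-labelled cells, and 22516 and 21446 in treated and 31710 and 29657 in control MM1S cells. Of 6 B-cell markers, 5 fell in OPM1-labelled cells and 1 fell in MM1S, where 38.5% and 21.1% of all genes were lower. In OPM1-labelled cells 4 fell after quantile normalization and 6 with the poly-A scaling. Markers of other cells also moved in OPM1-labelled cells. CD14, a myeloid marker too dim on average to be tested, read 122.79 and 74.4 in treated and 5.82 and 4.89 in control cells. CD3E of T cells (log2 0.40) and COL1A1 of stromal cells (0.46) were called higher there (limma adjusted p = 0.0138 and 0.0102), but not without the first OPM1 control array (0.29 and 0.18), and both were lower with the poly-A scaling (-0.81 and -1.06). In treated and control OPM1-labelled cells the summed signals were 170.3 and 112.5 against 43.4 and 58.3 for 4 myeloid markers, 125.3 and 123.2 against 87.0 and 98.7 for 5 T and NK cell markers, and 160.3 and 156.5 against 97.0 and 150 for 3 stromal markers. The part of these markers in the change of TNFRSF17 and the other B-lineage members was not tested.

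TACI transcripts fell with Zalypsis in both lines. TNFRSF13B read 914 and 865 on the treated MM1S arrays, against 1791 and 1490 on the MM1S controls. It read 23.6 and 15.5 on the treated OPM1 arrays, against 222 and 215 on the OPM1 controls. Neither line's groups overlapped, and the treated OPM1 arrays lay below the signal of 27.3 used to set dim genes aside. The log2 change was -0.85 ± 0.15 in MM1S (limma adjusted p = 9.0e-05) and -2.29 ± 0.15 in OPM1-labelled cells (limma adjusted p = 1.1e-11). The fall was deeper in OPM1-labelled cells (difference -1.43 ± 0.21 on the log2 scale, limma adjusted p = 1.0e-05). Among all tested genes this change ranked within the lowest 9.25% in MM1S and the lowest 5.71% in OPM1-labelled cells. Like TNFRSF17, TNFRSF13B was lower in untreated OPM1-labelled cells than in untreated MM1S, with means of 218 ± 5.57 and 1640 ± 213 (SD, n = 2) and a log2 difference of -2.73 ± 0.15 (limma adjusted p = 5.0e-13).

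The BAFF receptor was dim throughout. TNFRSF13C read 37.2 and 33.9 in treated MM1S cells and 30.0 and 23.4 in MM1S controls, and 41.1 and 43.3 in treated and 35.6 and 44.7 in control OPM1-labelled cells. The arrays did not overlap in MM1S but did in OPM1-labelled cells, and neither change was called (log2 0.21, 95% interval -0.07 to 0.48, and 0.04, interval -0.23 to 0.32, limma adjusted p = 0.247 and 0.804). The response did not pass the test for a difference between lines (limma adjusted p = 0.513). The highest group mean, 42.2 in treated OPM1-labelled cells, was close to that of their controls, 40.2, and the lowest was 26.7 in MM1S controls. The log2 difference between the untreated lines was 0.30 ± 0.13 and missed the threshold (limma adjusted p = 0.0562). It passed the threshold without the first OPM1 control array (log2 0.39, limma adjusted p = 0.0439).

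4-1BB ligand rose with Zalypsis in MM1S more than any other member. TNFSF9 read 618 and 546 on the treated MM1S arrays, against 113 and 99.8 on the MM1S controls. The treated mean was 5.47 times the control mean, and the log2 change of 2.15 ± 0.16 (limma adjusted p = 5.5e-10) was within the top 0.0337% of all tested genes. In OPM1-labelled cells TNFSF9 read 251 and 262 with Zalypsis, against 267 and 173 in controls. These arrays overlapped, and the 2 controls stood further apart than the 2 treated arrays (log2 0.22, 95% interval -0.12 to 0.56, limma adjusted p = 0.246). That value rested on the controls: it was 0.49 without the first OPM1 control array (limma adjusted p = 0.0157) and -0.05 without the second (0.815), 0.61 after quantile normalization (6.0e-03) and -1.63 with the poly-A scaling (2.8e-08). The response was smaller in OPM1-labelled cells than in MM1S (difference -1.93 ± 0.23 on the log2 scale, limma adjusted p = 6.0e-07). From high to low, the group means were 582 in treated MM1S, 256 in treated OPM1-labelled, 220 in control OPM1-labelled and 106 in control MM1S cells, and only the middle pair overlapped. Untreated OPM1-labelled cells were above untreated MM1S (log2 0.84 ± 0.16, limma adjusted p = 1.1e-04).

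The receptor of this ligand was near the floor of the arrays. The brightest TNFRSF9 probe set read 25.8 and 1.88 in treated and 12.0 and 18.9 in control MM1S cells, and 23.5 and 24.5 in treated and 32.4 and 21.6 in control OPM1-labelled cells. The second brightest read 36.0 and 35.4 in treated OPM1-labelled cells, against 4.31 and 19.6 in their controls. With all probe sets fitted as rows of their own, the second brightest changed by log2 0.65 ± 0.15 (limma adjusted p = 5.0e-03) and the third by 0.41 ± 0.14 (0.0387), whereas the brightest gave -0.07 ± 0.21 (0.852). The 3 probe sets thus disagreed, and all had mean signals in the lowest 32.2% of the genes' range. In MM1S none of them moved past the threshold, with log2 values of -0.10, 0.02 and 0.12.

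CD70, the ligand of CD27, went opposite ways in the lines. It read 716 and 663 on the treated MM1S arrays, against 472 and 361 on the MM1S controls (log2 0.70 ± 0.17, limma adjusted p = 2.6e-03). It read 308 and 293 on the treated OPM1 arrays, against 425 and 604 on the OPM1 controls (log2 -0.70 ± 0.17, limma adjusted p = 1.1e-03). Both treated groups stood clear of their controls, and the responses differed by -1.39 ± 0.24 on the log2 scale (limma adjusted p = 6.4e-05). The fall in OPM1-labelled cells was not called after quantile normalization (log2 -0.33, limma adjusted p = 0.0531). The rise in MM1S was not called with the poly-A scaling (log2 0.49, limma adjusted p = 0.362), whose controls read only 19.7 to 25.7 on MM1S arrays. The untreated lines overlapped, at 425 and 604 in OPM1-labelled and 472 and 361 in MM1S cells (log2 0.28 ± 0.17, limma adjusted p = 0.165). Without the first OPM1 control array, which read 425, the log2 difference was 0.515.

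CD70 and TNFSF9, which rose together in MM1S, are neighbours on chromosome 19 with 0 protein-coding genes between them in the RefSeq annotation. TNFSF14, the next TNF ligand gene beyond CD70, was too dim to be tested, at 15.2 and 20.4 in treated and 5.64 and 10.2 in control MM1S cells. On the other side, TUBB4A, a tubulin gene, read 51.0 and 39.5 in treated and 26.6 and 21.3 in control MM1S cells. Its arrays did not overlap either, as for 66.4% of all tested genes. In OPM1-labelled cells the neighbours stood apart: TUBB4A read 112 and 102 in treated and 245 and 205 in control cells, whereas TNFSF14 read 44.2 and 51.3 in treated and 26.6 and 16.2 in control cells.

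CD27, the receptor of CD70, fell in OPM1-labelled cells as well. It read 260 and 249.24 with Zalypsis, against 390 and 462 in controls, with no overlap (log2 -0.67 ± 0.17, limma adjusted p = 1.9e-03). After quantile normalization that fall was not called (log2 -0.30, limma adjusted p = 0.141). In MM1S it read 178 and 103 with Zalypsis, against 108 and 78.8 in controls. These arrays overlapped, and the change just missed the threshold (log2 0.43 ± 0.17, 95% interval 0.07 to 0.79, limma adjusted p = 0.0553). It was called in 8 of 19 alternative settings, with an adjusted p between 3.4e-03 and 0.728. The responses differed by -1.10 ± 0.25 (limma adjusted p = 8.3e-04). Untreated OPM1-labelled cells had 4.55 times the signal of untreated MM1S, 426 ± 50.8 against 93.6 ± 21.0 (SD, n = 2, log2 1.87 ± 0.17, limma adjusted p = 4.1e-09).

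CD40, through which T cells stimulate B cells, was higher with Zalypsis in OPM1-labelled cells. Its brightest probe set read 368 and 421 there with Zalypsis, against 167 and 258 in controls (log2 0.83 ± 0.17, limma adjusted p = 2.2e-04). Without the first OPM1 control array the change was 0.56 (limma adjusted p = 0.0101), and with the poly-A scaling it turned to -1.06 (2.3e-04). In MM1S the same probe set read 219 and 165 with Zalypsis, against 197 and 161 in controls, which overlapped (log2 0.08, 95% interval -0.28 to 0.44, limma adjusted p = 0.762). The other 3 probe sets of CD40 rose in OPM1-labelled cells as well. Fitted as rows of their own, in falling order of brightness, they changed by log2 1.46 ± 0.12, 1.24 ± 0.13 and 0.57 ± 0.15 (limma adjusted p = 3.5e-06, 2.2e-05 and 9.3e-03). They also placed untreated OPM1-labelled cells above untreated MM1S, by 0.75, 0.88 and 0.55, whereas the brightest gave 0.19 ± 0.19 (limma adjusted p = 0.5005). All probe sets of CD40 thus pointed the same way on the untreated lines, but the brightest was not called. Its OPM1 controls stood apart, at 167 and 258. Its difference was larger without the first of them and -0.0778 without the second. The responses of the lines differed by 0.75 ± 0.24 by the brightest probe set (limma adjusted p = 0.0149), a difference not called without the first OPM1 control array (log2 0.48, limma adjusted p = 0.108), without the first MM1S control array (0.62, 0.0714) and without the second treated array of either line (0.57, 0.0941 for MM1S and 0.66, 0.0546 for OPM1). Of 18 alternatives 12 called a difference, 11 of them in this direction, and with the poly-A scaling it turned to -0.948. With no dim genes left out or probe sets as rows it was not called (limma adjusted p = 0.0529 and 0.0801). As rows of their own, the other 3 probe sets gave differences of 1.40, 1.32 and 0.43 (limma adjusted p = 2.5e-04, 5.7e-04 and 0.180).

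DR6 showed the deepest fall among the members in OPM1-labelled cells. TNFRSF21 read 85.9 and 62.5 there with Zalypsis, against 802 and 616 in controls, so that the control mean was 9.56 times the treated mean (log2 -2.80 ± 0.14, limma adjusted p = 1.9e-13). The second probe set read 28.3 and 23.7 with Zalypsis, against 206 and 227 in controls, and fell by 2.10 ± 0.13 as a row of its own (limma adjusted p = 3.5e-07). In MM1S TNFRSF21 was dim, at 17.8 and 22.9 with Zalypsis, against 37.1 and 36.2 in controls. That change was called (log2 -0.39 ± 0.14, limma adjusted p = 0.0338), but in only 10 of 19 alternative settings, over which it ranged from -0.54 to -0.26. It was not called without any 1 of the 4 MM1S arrays (-0.46 to -0.32), with a pseudocount of 64 (-0.26), with the poly-A scaling (-0.49), after quantile normalization (-0.38), or with no dim genes left out or probe sets as rows (limma adjusted p = 0.106 and 0.133). Untreated OPM1-labelled cells had 19.3 times the signal of untreated MM1S, 709 ± 132 against 36.7 ± 0.622 (SD, n = 2, log2 3.42 ± 0.14, limma adjusted p = 3.9e-15). The log2 changes differed by -2.41 ± 0.20 (limma adjusted p = 5.2e-09). From the MM1S control level, however, the deepest change that log2(signal + 32) allows is -1.10, so a change as deep as that of OPM1-labelled cells could not have been seen in MM1S.

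GITR, a receptor of activated and regulatory T cells, was at background. The brighter TNFRSF18 probe set read 33.5 and 13.3 in treated and 23.1 and 14.5 in control MM1S cells, and 14.6 and 21.3 in treated and 16.3 and 23.6 in control OPM1-labelled cells. All groups overlapped for this probe set. The other ranged from 6.04 to 27.7 over the 8 arrays. Its groups did not overlap in MM1S, at 20.8 and 27.7 in treated and 17.0 and 17.7 in control cells. Nor did they between the untreated lines, at 6.81 and 6.34 in OPM1-labelled cells. As a row of its own it was called in neither (log2 0.19 and -0.36, limma adjusted p = 0.485 and 0.0804). T and NK cell markers were low as well, with a summed signal of 5 genes of 45.0 to 125 over all arrays.

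**Figure D2:**
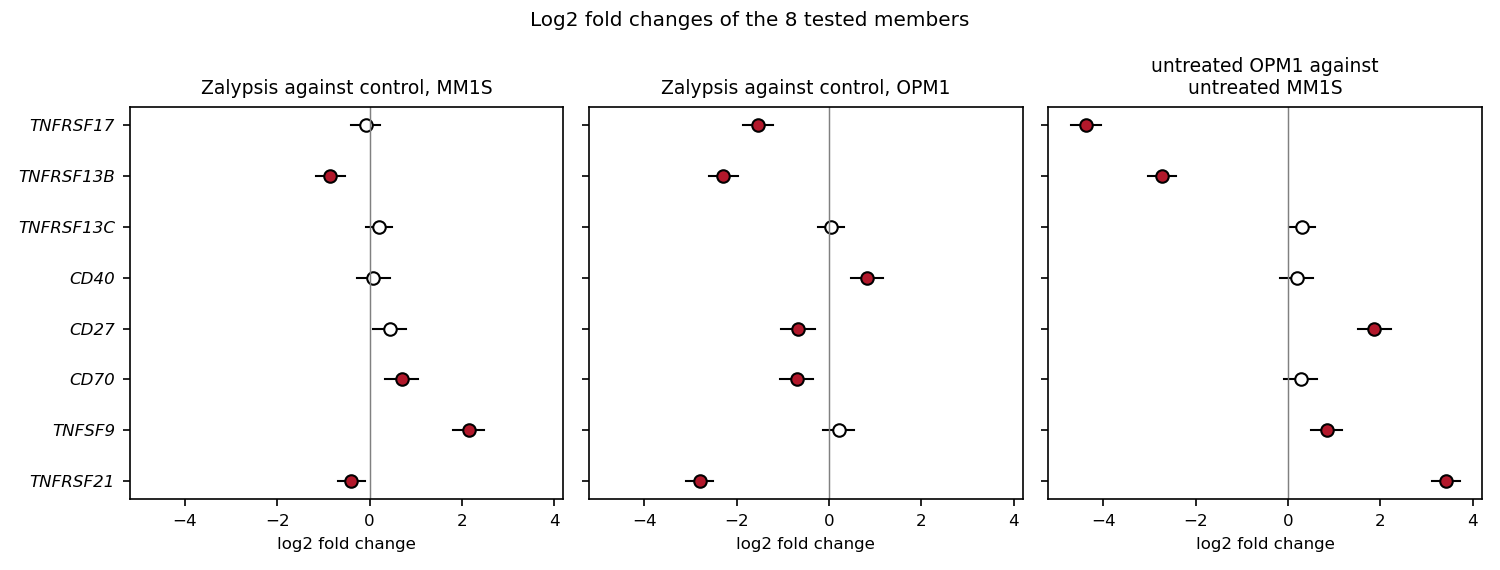
Log2 fold changes of the 8 tested members with 95% intervals, for Zalypsis against control in MM1S, for Zalypsis against control in OPM1-labelled cells, and for untreated OPM1-labelled against untreated MM1S cells. Filled points were called at an adjusted p under 0.05. TNFSF9 stands at 2.15 in MM1S, and TNFRSF21 and TNFRSF13B stand at -2.80 and -2.29 in OPM1-labelled cells.

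**Figure D3:**
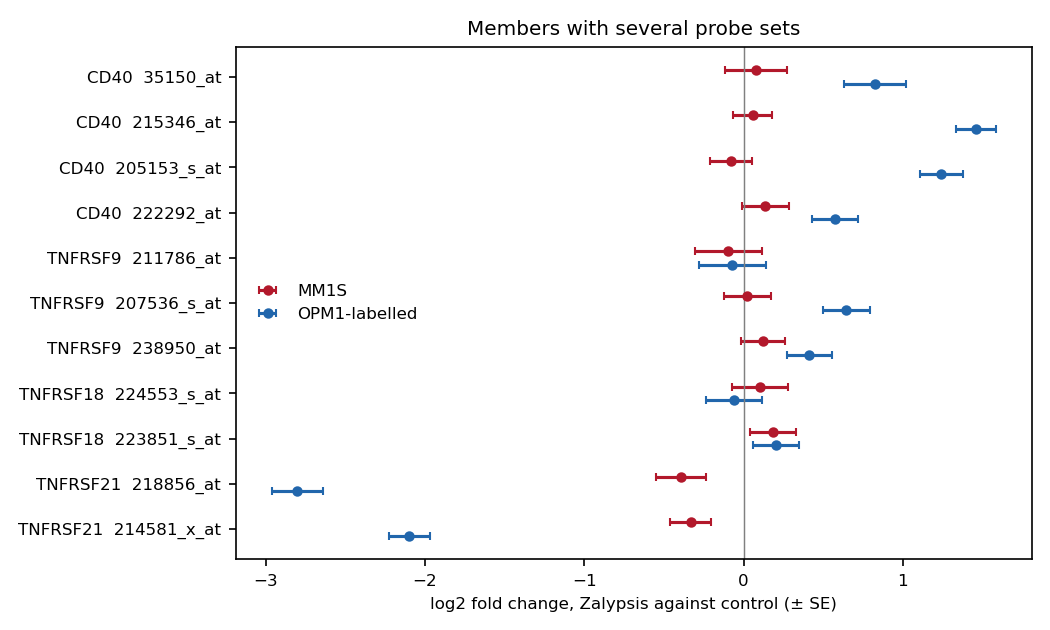
Log2 fold change with Zalypsis (± SE) of every probe set of the 4 members with more than 1, with all probe sets fitted as rows of their own. The 4 probe sets of CD40 lie between 0.57 and 1.46 in OPM1-labelled cells and between -0.08 and 0.14 in MM1S, and the 2 of TNFRSF21 lie at -2.80 and -2.10 in OPM1-labelled cells.

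The scaling of the arrays bears on the OPM1-labelled results, since the median log2 change of all tested genes was -0.07 as deposited, 0.11 after quantile normalization and -1.70 with the poly-A scaling. Lower genes made up 60.3% of the calls there as deposited, 45.4% after quantile normalization and 99.4% with the poly-A scaling. In MM1S they made up 56.2%, 45.4% and 86%. In the same order, 63.9%, 71.7% and 93.2% of all tested genes were called in OPM1-labelled cells, and 37.6%, 43% and 18.6% in MM1S. The falls of TNFRSF17, TNFRSF13B and TNFRSF21 were called in OPM1-labelled cells under each of these scalings. After quantile normalization they were -1.33, -2.26 and -2.52, and with the poly-A scaling -3.08, -3.56 and -4.48. Relative to the median of all genes, these 3 members therefore lay lower in each setting.

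**Figure D4:**
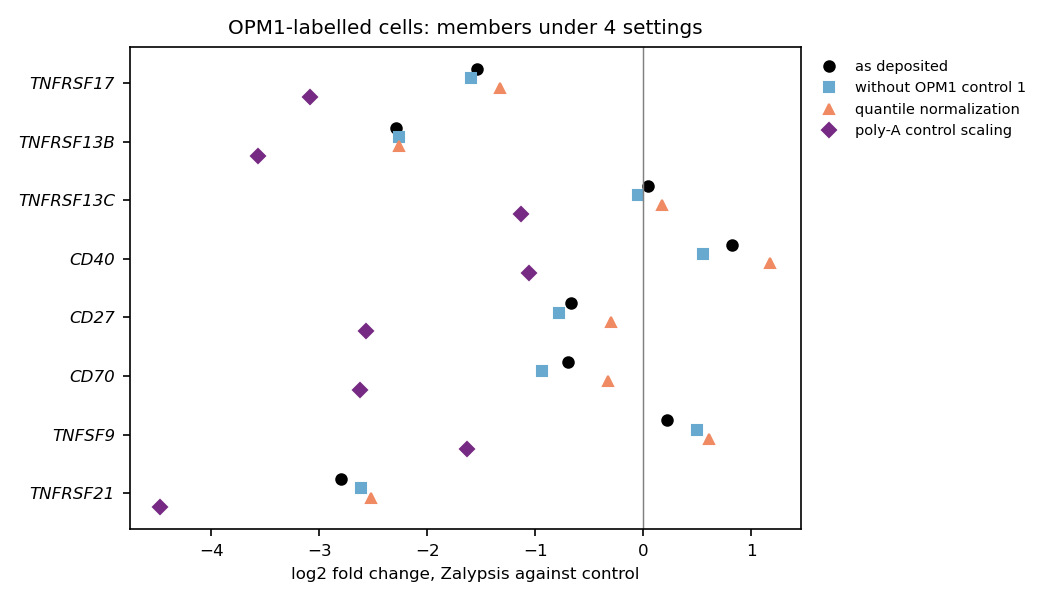
Log2 change with Zalypsis of the 8 tested members in OPM1-labelled cells, as deposited, without the first OPM1 control array, after quantile normalization, and with arrays scaled to the poly-A controls. TNFRSF17, TNFRSF13B and TNFRSF21 lie below 0 in all 4 settings, and CD40 lies at 0.83 as deposited and at -1.06 with the poly-A scaling.

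The members that fell differ in the length of genome they span, by the RefSeq annotation of GRCh38.p14. TNFRSF21 spans 78.4 kb and TNFRSF13B 33.0 kb, and they were the longest of the tested members and those that fell most in OPM1-labelled cells. TNFRSF17 spans 2.86 kb, the least of the 10, and fell too. CD70 spans 9.50 kb and CD27 7.82 kb, and both fell there, whereas CD40, which was higher there, spans 11.5 kb. TNFSF9 spans 4.90 kb and TNFRSF13C 4.775 kb, and neither was called there. A link of this length with the changes was not tested.

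APRIL and BAFF are the soluble ligands of BCMA and TACI. Of 4 further ligands of the members, 3 had a probe set used here and 1 was bright enough to be tested. TNFSF13, which encodes APRIL, read 86.1 and 97.7 in treated and 104 and 102.5 in control MM1S cells, and 50.9 and 38.1 in treated and 42.2 and 39.9 in control OPM1-labelled cells. It was not called with Zalypsis in either line, and was lower in untreated OPM1-labelled than in untreated MM1S cells (log2 -0.89 ± 0.13, limma adjusted p = 3.0e-06). TNFSF13B, which encodes BAFF, was too dim to be tested, at 27.1 and 29.7 in treated and 7.29 and 9.67 in control OPM1-labelled cells, and 22.6 and 18.2 in treated and 33.1 and 23.0 in control MM1S cells. Its groups did not overlap in either line, with treated arrays the higher ones in OPM1-labelled cells and the lower ones in MM1S. TNFSF18, which encodes the GITR ligand, read 14.3 to 44.9 over the 8 arrays. Of 12 other TNF ligands 3 were tested. EDA, ectodysplasin, was lower with Zalypsis in MM1S (log2 -0.65 ± 0.16, limma adjusted p = 2.6e-03). TNFSF10, which encodes TRAIL, was lower in OPM1-labelled cells (log2 -0.42, limma adjusted p = 0.0121), but was called neither after quantile normalization (-0.08) nor without the first OPM1 control array (-0.32). LTB, a lymphotoxin subunit, was higher in untreated OPM1-labelled than in untreated MM1S cells (log2 0.67).

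Among 11 tested of 21 other TNF receptors, 4 rose and 0 fell with Zalypsis in MM1S (median log2 change 0.24, against 0.02 for all genes), and 1 rose and 3 fell in OPM1-labelled cells (median -0.10, against -0.07), where 37.6% and 63.9% of all genes were called. In OPM1-labelled cells 2 rose and 2 fell after quantile normalization (median 0.12), and 0 rose and 11 fell with the poly-A scaling (median -1.48). In MM1S, TNFRSF10D, a decoy receptor for TRAIL, read 253 and 217 with Zalypsis, against 34.5 and 35.8 in controls (log2 1.99 ± 0.13). Also in MM1S, FAS read 525 and 492, against 142 and 153 (log2 1.59 ± 0.12). TNFRSF10B, a TRAIL death receptor, read 706 and 627 in MM1S, against 321 and 255 (log2 1.13 ± 0.15). The response of each of these 3 was lower in OPM1-labelled cells, with log2 differences of -1.94, -1.72 and -1.32 (limma adjusted p = 2.7e-08, 6.1e-08 and 2.7e-05). There TNFRSF1B, TNF receptor 2, fell by 1.23 ± 0.14, and TNFRSF10A, another TRAIL receptor, by 0.74 ± 0.15. TNFRSF1A fell by 0.57, but was not called after quantile normalization (-0.24). TNFRSF8, which encodes CD30, rose in both lines, by 0.32 and 0.46, yet its rise was not called in MM1S with the poly-A scaling (0.15) and turned to a fall in OPM1-labelled cells (-1.04).

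The TRAF adaptors and their partners link these receptors to NF-kB. Of 11 tested of 13, 4 rose and 3 fell in MM1S (median log2 change 0.10) and 3 rose and 4 fell in OPM1-labelled cells (median 0.07), where 37.6% and 63.9% of all genes were called. In OPM1-labelled cells 6 rose and 4 fell after quantile normalization (median 0.48), and the median was -0.12 without the first OPM1 control array. With the poly-A scaling 0 rose and 11 fell there (median -1.69), and 0 rose and 3 fell in MM1S. TRAF3, which restrains the noncanonical arm of NF-kB, fell in both lines. It read 126 and 114 in treated and 359 and 299 in control MM1S cells (log2 -1.24 ± 0.14), and 90.4 and 86.4 in treated and 684 and 717 in control OPM1-labelled cells (-2.60 ± 0.14). The fall was deeper in OPM1-labelled cells (difference -1.36 ± 0.20, limma adjusted p = 7.5e-06). TRAF5 fell in both as well, by 1.10 ± 0.12 in MM1S and 1.02 ± 0.12 in OPM1-labelled cells. TNFAIP3, which encodes the NF-kB inhibitor A20, fell in MM1S (log2 -0.69 ± 0.15), where TRAF4 rose (0.62 ± 0.13, not called with the poly-A scaling at 0.47). TRAF3IP3 fell by 1.42 ± 0.14 in OPM1-labelled cells. CYLD, a deubiquitinase that damps NF-kB, rose there by 0.96 ± 0.15, but fell with the poly-A scaling (-0.81).

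Of 11 tested genes among 12 NF-kB subunits, kinases and inhibitors, 3 rose and 2 fell in MM1S (median log2 change 0.11), and 2 rose and 6 fell in OPM1-labelled cells (median -0.62), where 37.6% and 63.9% of all genes were called. In OPM1-labelled cells 4 rose and 5 fell after quantile normalization (median -0.32), and 0 rose and 10 fell with the poly-A scaling (median -2.18), which gave 0 higher and 1 lower in MM1S. NFKB1, which encodes the p50 subunit, fell in both lines, to 158 and 160 in treated MM1S cells, against 472 and 381 in controls, and to 89.9 and 100.4 in treated OPM1-labelled cells, against 288 and 403.5 in controls. NFKBIA, which encodes the inhibitor I-kappa-B-alpha and is itself a target of NF-kB, read 1201 and 1052 in treated and 649 and 459 in control MM1S cells (log2 1.00 ± 0.17), and 1350.5 and 1445 in treated and 301 and 384 in control OPM1-labelled cells (1.94 ± 0.17). With the poly-A scaling neither rise was called (0.78 and -0.07). CHUK and IKBKB, the I-kappa-B kinases, fell in OPM1-labelled cells by 1.92 ± 0.14 and 1.59 ± 0.13, and their responses were lower there than in MM1S (difference -1.97 and -1.43). In MM1S, RELA (log2 0.52) and NFKBIE (0.44) rose, but neither was called with the poly-A scaling (0.31 and 0.26). REL was higher in untreated OPM1-labelled than in untreated MM1S cells by 3.32 ± 0.15, and MAP3K14, the kinase that starts the noncanonical arm, was lower by 1.26 ± 0.13 (log2 -1.26).

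The protease gamma-secretase sheds BCMA from the surface of plasma cells. Of its 5 tested subunits of 6, 0 were called with Zalypsis in MM1S, and 1 rose and 3 fell in OPM1-labelled cells (median log2 change -0.66), where 37.6% and 63.9% of all genes were called. In OPM1-labelled cells 2 rose and 3 fell after quantile normalization (median -0.31), and 0 rose and 5 fell with the poly-A scaling (median -2.63). PSEN2, a catalytic subunit, read 10.4 and 14.2 there with Zalypsis, against 115 and 153 in controls (log2 -1.90 ± 0.13), NCSTN fell by 1.33 ± 0.15 and APH1A by 0.66 ± 0.16. PSENEN rose by 0.70 ± 0.18, but not without the first OPM1 control array (0.36, limma adjusted p = 0.0941), and fell with the poly-A scaling (-1.05). Beside the 0 called by limma in MM1S, 2 subunits had an unadjusted p under 0.05, PSEN2 (log2 -0.31) and PSENEN (0.37). There 1 was called after quantile normalization, and 1 rose and 1 fell without the first OPM1 control array.

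**Figure D5:**
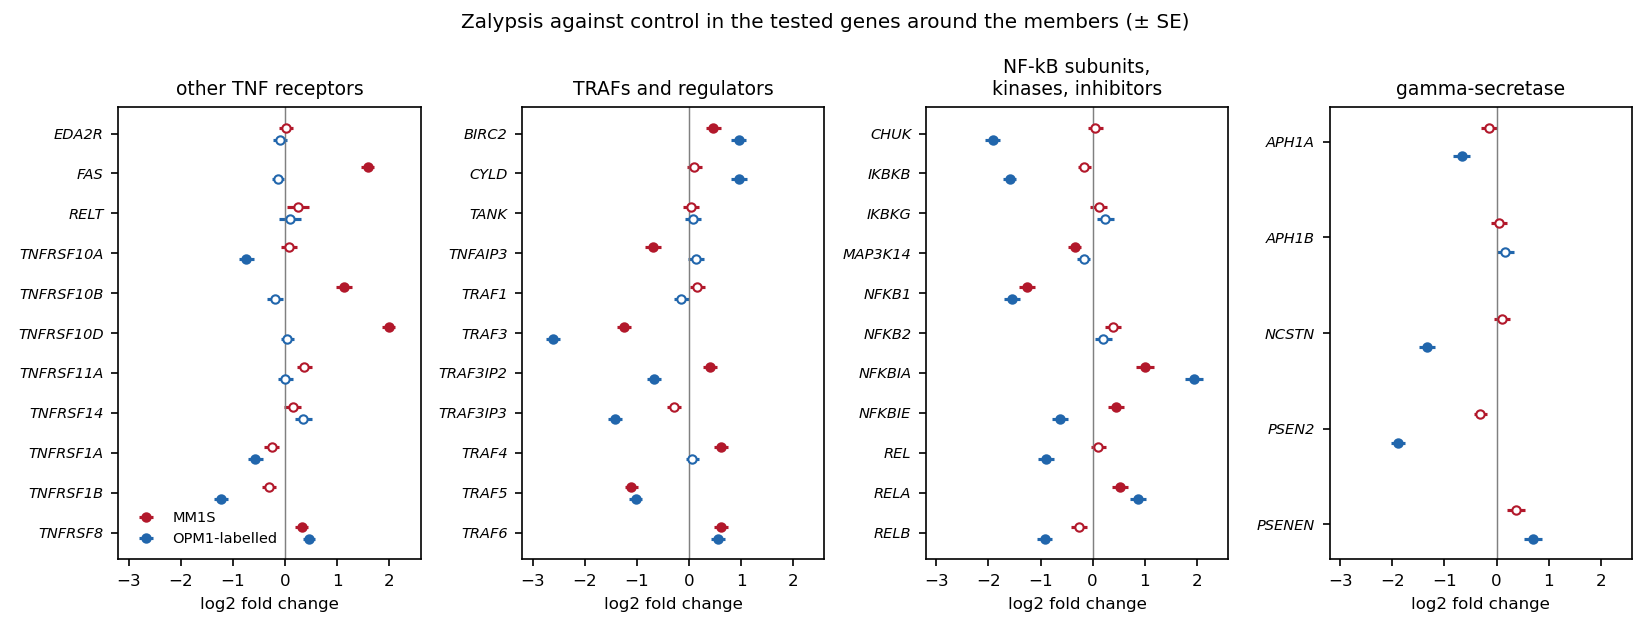
Log2 change with Zalypsis (± SE) of the tested genes of 4 lists around the members, in MM1S and in OPM1-labelled cells; filled points were called at an adjusted p under 0.05. TRAF3 lies at -1.24 and -2.60, NFKB1 at -1.25 and -1.56, and NFKBIA at 1.00 and 1.94 in MM1S and OPM1-labelled cells.

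The tested genes whose profile over the 8 arrays was most like that of a member were found by Pearson's r of log2(signal + 32). The arrays fall into 4 groups that share line and treatment, so r mainly describes the spacing of the group levels, and genes of a high r can differ in their order within a line. For TNFRSF17 they were IFIH1, RHEB and INSIG2 (r = 0.998 each). IFIH1 averaged 373 and 350 in treated and control MM1S, the other order than TNFRSF17, and 82.0 and 127 in treated and control OPM1-labelled cells. INSIG2 averaged 376 and 395 in treated and control MM1S and 48.5 and 97.4 in treated and control OPM1-labelled cells. For TNFRSF13B they were ZMIZ1, RASA3 and USP28 (r = 0.999 each). ZMIZ1 averaged 631 and 1270 in treated and control MM1S and 4.67 and 158 in treated and control OPM1-labelled cells. For TNFSF9 they were RCBTB2, TONSL and ZNF627 (r = 0.971, 0.960 and 0.957), and RCBTB2 averaged 179 and 64.2 in treated and control MM1S and 94.6 and 109.5 in treated and control OPM1-labelled cells, where the means of TNFSF9 stood the other way.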

How the data were processed

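HG-U133 Plus 2.0 arrays measured expression in 8 samples. Amplification and biotin labelling started from 100 ng of RNA, per the labels' protocols. The authors used dChip, per the design text of the series, but its version, normalization and probe model are not stated there or in the labels. Each deposited value is a linear intensity for 1 probe set on 1 array, and was kept as the authors made it. Sequencing depth has no counterpart here, and precision is limited by how few arrays there are.

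Of 54675 probe sets, 62 controls, 1801 with several gene symbols and 11721 with none in the platform table were left out, and the probe set with the highest mean log2(value + 32) stood for a gene. Of 19775 genes, the dimmest 40% by that mean (signal under 27.3) were not tested. A limma model (3.58.1, in R 4.3.3, with eBayes and a trend) compared group means of the other 11865, with 1 spread over all 8 arrays (4 residual degrees of freedom, prior 17.0) and Benjamini-Hochberg adjustment within a comparison. Errors are standard errors for log2 changes and SD for means. The steps were tested on simulated data. The members and lists were chosen with earlier results of these data known. Named were all 10 members, up to 4 called genes per list and comparison whose groups did not overlap, and the 3 genes most like each of 3 members. SDC1, CD38, JCHAIN, CD14, CD3E, COL1A1, TNFSF13B, TNFSF18, TNFSF14 and TUBB4A, and the list genes given at values that were not called, were named after their values were seen. Alternatives were other pseudocounts, filters, scalings and probe set rules, a replicate block, each line alone, the authors' 2-fold rule and leaving out each array.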

Additional observations from a re-analysis of the deposited data

Results flagged for a closer look

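The response to Zalypsis differed between the lines by the interaction term of the limma fit for 7 of the 8 tested members (OPM1-labelled minus MM1S, log2 scale), where 46.6% of all tested genes differed. TNFRSF21 differed by -2.41 (adjusted p = 5.2e-09), but its MM1S level allowed no change below -1.10, so the size and direction of this difference follow in part from that limit. TNFSF9 differed by -1.93 (6.0e-07), TNFRSF17 by -1.45 (1.1e-05), TNFRSF13B by -1.43 (1.0e-05), CD70 by -1.39 (6.4e-05) and CD27 by -1.10 (8.3e-04). CD40 alone among them was higher, by 0.748 (0.0149), and its difference was -0.948 with the poly-A scaling. All groups held 2 arrays, so no array was tested as an outlier.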

How the results depend on the processing

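Of 580 values of the 32 member results under 16 to 19 alternatives each, 534 kept their direction and side of the threshold, 18 lost a call, 18 gained a call and 10 changed sign, 4 of these with a call. In MM1S 4 members were called, 2 with the poly-A scaling and 1 by the authors' 2-fold rule (TNFSF9, where 3.77% of all tested genes were higher by that rule), and 3 to 5 when an array was left out. In OPM1-labelled cells 6 were called, 3 by the 2-fold rule (TNFRSF17, TNFRSF13B and TNFRSF21, where 26.7% of all genes were lower by it), all 8 with the poly-A scaling (0 higher and 8 lower), and 6 to 7 when an array was left out, and after quantile normalization 2 were higher and 3 lower. For the difference of responses 7 were called, 8 with the poly-A scaling (all lower), and 6 to 7 with an array left out. Between the untreated lines 5 were called and 5 to 8 with an array left out, the 8 without the first OPM1 control array. With the poly-A scaling 93.2% of all tested genes were called in OPM1-labelled cells, and 99.4% of those calls were lower. For the difference of responses 88.9% were called with it, 98.7% of them lower. The counts of 8 with that scaling are therefore no result about the members as a set. The OPM1-labelled log2 changes of TNFRSF13C, CD40 and TNFSF9 turned with it to -1.13, -1.06 and -1.63. The CD40 difference turned to -0.948 and the MM1S change of CD40 to -0.114. With an array left out, CD40 ranged from -0.0970 (first treated array out) to 0.254 in MM1S and was -0.0457 without the second control. Between the untreated lines CD40 ranged from -0.0778 (second OPM1 control out) to 0.462. In OPM1-labelled cells TNFRSF13C ranged from -0.0483 (first control out) to 0.133, and TNFSF9 from -0.0541 (second control out) to 0.493. The cause of these turns was not tested.

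The groups share replicate numbers, but no label says that a number marks a shared culture or day. Deviations of same-numbered arrays correlated at 0.212 in MM1S and 0.209 in OPM1-labelled cells and at -0.125 between the untreated lines, with 2 pairs each. With the replicate number as a block, 5 members were called in MM1S, 6 in OPM1-labelled cells, 7 in the comparison of responses and 5 in the comparison of untreated cells, against 4, 6, 7 and 5 without it, and CD27 in MM1S was the call gained (adjusted p = 8.6e-03). TNFRSF9 and TNFRSF18, too dim for the main test, were not called in any comparison when no genes were left out as dim. Over all genes, calls moved by more than 1.5 times with the poly-A scaling in MM1S (2206 against 4457) and for the difference of responses (10550 against 5524), and with probe sets as rows to 7301 in MM1S, 14661 in OPM1-labelled cells (against 7579), 8954 in the comparison of responses and 14532 in that of untreated cells (against 7563), where more features were tested. Signals near 27.3 limit what can be said of TNFRSF9, TNFRSF13C, TNFRSF18 and, in MM1S, TNFRSF21.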
